A study of Schizosaccharomyces pombe with 24 samples.

Results

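Fission yeast (Schizosaccharomyces pombe) labelled clr4D was compared with wild type 2 h after the cells were moved to medium without nitrogen. The comparison holds 4 of the 24 RNA sequencing libraries of the series, chosen by the strain and time in their labels: 2 of wild type at 2 h and 2 of clr4D at 2 h. The wild type is labelled wt (975 h+), and the other strain carries the same h+ background with clr4D::NatMX6, a deletion label for the gene of the histone methyltransferase Clr4. Both strains grew at 32 °C in EMM with adenine, histidine, leucine, lysine and uracil, were washed in EMM without nitrogen and stayed in it for the 2 h. The other libraries, at 0, 1, 4, 10 and 24 h, served to estimate the spread between replicates and to place the 2 h values in time. The labels do not say whether a strain is 1 clone, and the design text calls the 2 replicates of each group biological.

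Fission yeast cells are of the P type (h+) or the M type (h-), set by the genes at the expressed cassette mat1. Silent copies of both kinds of information lie next to it at mat2-P and mat3-M, in a heterochromatic region kept silent through methylation of histone H3 by Clr4. Without nitrogen, the transcription factor Ste11 turns on mating genes. P cells then secrete P-factor and sense M-factor, M cells do the reverse, and in both types the signal runs through Ras1 and a MAP kinase chain to cell fusion and meiosis. Clr4 also keeps the repeats at centromeres and the genes next to telomeres silent.

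The libraries held 1746691 and 2494990 reads on genes in wt, and 904004 and 1454708 in the clr4D-labelled cells. Levels are given in CPM, the reads of a gene divided by the size of its library after scaling by the trimmed mean of M values. A count of 0 in both libraries of a group allows up to 3 reads, which is 0.706 CPM in wt and 1.27 CPM in the clr4D-labelled group, and this covers counting error only. Over the 5664 genes that passed the filter on low counts, Pearson's r of log2 CPM (prior count of 2) between replicates was 0.9893 for wt and 0.9791 for clr4D-labelled cells. Reads aligned to several places, 5.55% and 5.61% of the wt libraries and 7.76% and 8.30% of the clr4D-labelled ones, were counted for no gene.

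The clr4 feature itself (SPBC428.08c) was not lower in the clr4D-labelled cells. At 2 h it stood at 114 and 107 CPM in the wt libraries and at 146 and 117 CPM in the clr4D-labelled ones, a log2 difference of 0.25 ± 0.23 (SE, edgeR quasi-likelihood test, adjusted p = 0.94). Both clr4D-labelled values lay above both wt values. The raw counts were 196 and 270 reads in wt and 135 and 170 reads in the clr4D-labelled libraries. At 0 h clr4 was at 89.3 and 172 CPM in wt and at 277 and 397 CPM in the clr4D-labelled libraries (1.36 ± 0.24, adjusted p = 0.0155), and at 1 h at 93.5 and 123 CPM against 343 and 427 CPM (1.89 ± 0.24, adjusted p = 1.12e-04). It was called higher at 24 h too (0.98 ± 0.21, adjusted p = 0.00594), and not at 4 h (0.07 ± 0.25, adjusted p = 0.911) or 10 h (0.16 ± 0.23, adjusted p = 0.683). Counts per feature carry no position, so the part of the gene from which these reads come is not known, and the strain label is not checked by them. The cells are therefore called clr4D-labelled throughout.

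At 2 h the clr4D-labelled cells had far more RNA of the genes that are normally read in M cells, more RNA of several P-cell and pheromone pathway genes, and RNA from centromeric, subtelomeric and mating-type region features that had few or 0 reads in wt. Less abundant were the RNAs of a cluster of genes for the use of organic nitrogen and of histone genes. Of 5664 tested genes, 88 were called at an adjusted p under 0.05 (1.55%), of which 75 were higher (1.32%) and 13 lower (0.23%) in the clr4D-labelled cells. The higher genes were 60 protein-coding genes and 15 long non-coding RNAs (lncRNAs), and the lower genes were all protein-coding. At least 2-fold changes made up 65 of the higher (1.15% of genes tested) and 6 of the lower calls (0.106%). At an unadjusted p under 0.05 there were 447 genes (7.89%). The median log2 difference over all tested genes was 0.00. In 2355 genes (41.6%) the libraries of the strains did not overlap, so that such a separation is common. Leaving out wt replicate 2 gave 52 calls, and leaving out clr4D-labelled replicate 2 gave 53, 46 and 47 of them higher.

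**Figure D1:**
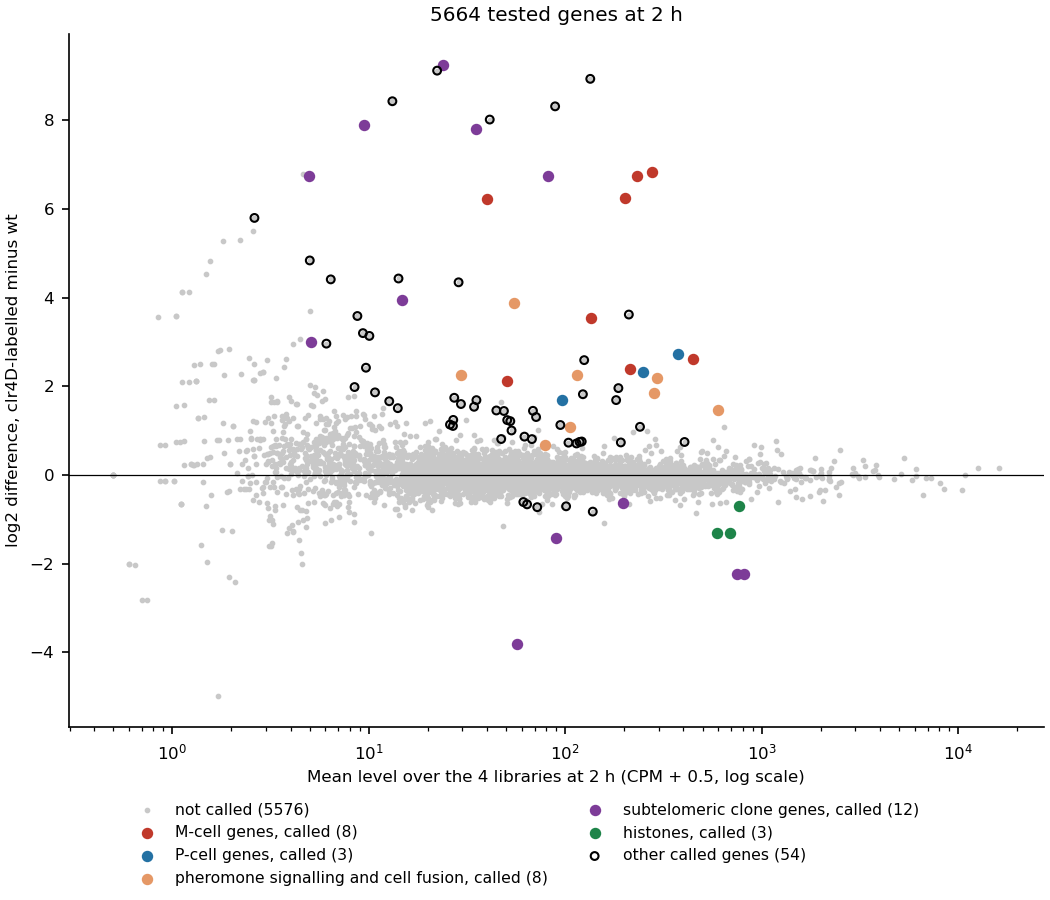
Log2 difference between clr4D-labelled and wt cells at 2 h (vertical axis) against the mean level over the 4 libraries (horizontal axis, CPM + 0.5, log scale) for the 5664 tested genes. Filled colours are called genes of 5 lists, open circles other called genes and grey points genes that were not called; all 8 M-cell genes lie above a log2 difference of 2, called subtelomeric genes lie on both sides of 0, and SPAC869.01 (-3.80) lies lowest among the called genes.

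M-cell genes rose as a whole. The list held 12 features matched to the annotation, of which 8 passed the filter on low counts, and all 8 were called higher, with a median log2 difference of 4.89. All 8 were also called in each of the 14 other settings tried. The remaining 4 were the Mc and Mi genes of mat1 and mat3, which had 0 reads at 2 h. The 8 features annotated for the mating-type cassettes had 0 reads in all 24 libraries, so the cassettes themselves were not measured. The sum over the 7 M-cell markers was 205 and 251 CPM in the wt libraries and 2923 and 2789 CPM in the clr4D-labelled ones, with no marker at 0 in any of the 4.

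Among the M-cell genes, the pheromone receptor and the pheromone genes stood farthest apart. The gene mam2 encodes the receptor by which M cells sense P-factor. It was at 4.63 and 4.75 CPM in wt and at 561 and 536 CPM in the clr4D-labelled libraries, a log2 difference of 6.84 ± 0.24 (SE, adjusted p = 7.67e-16, edgeR). All 3 genes that encode the precursor of M-factor rose with it. The gene mfm1 was at 2.32 and 5.54 CPM in wt against 413 and 504 CPM, a log2 difference of 6.75 ± 0.38 (adjusted p = 1.67e-11), or 7.58 without wt replicate 2. The gene mfm2 was at 3.48 and 6.33 CPM against 391.6 and 398.2 CPM (6.24 ± 0.25, adjusted p = 3.73e-15). The gene mfm3 was at 1.16 and 0.792 CPM against 89.0 and 66.3 CPM (6.23 ± 0.43, adjusted p = 4.49e-10). For each of the 4 genes both clr4D-labelled libraries lay far above both wt libraries, as the plot of mating genes in the 4 libraries shows.

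The genes for processing and export of M-factor, for degrading P-factor and for adhesion were read in wt too, and rose less. The protease gene sxa2, whose product breaks down P-factor, was at 20.86 and 20.98 CPM in wt and at 284.2 and 211.9 CPM in the clr4D-labelled libraries, a log2 difference of 3.55 ± 0.20 (adjusted p = 6.89e-12). The gene for the M-factor exporter, mam1, was at 117 and 134 CPM against 820 and 719 CPM (2.61 ± 0.18, adjusted p = 1.95e-10). The M-type adhesin gene mam3 was at 56.2 and 78.8 CPM against 365 and 355 CPM (2.40 ± 0.22, adjusted p = 5.87e-08). The methyltransferase gene mam4, which modifies M-factor, was at 12.2 and 23.8 CPM against 81.3 and 82.1 CPM (2.12 ± 0.24, adjusted p = 1.64e-06), or 2.74 without wt replicate 2. In none of these 4 genes did the libraries of the groups overlap.

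P-cell genes rose in part: 3 of 6 tested genes were called higher, with a median log2 difference of 1.10. The gene for the M-factor receptor of P cells, map3, was at 99.1 and 98.2 CPM in wt and at 785 and 519 CPM in the clr4D-labelled libraries, a log2 difference of 2.72 ± 0.27 (adjusted p = 2.17e-07). The gene his6 overlaps it on the opposite strand and was called lower (-0.61 ± 0.15, adjusted p = 0.039), and the strand setting of the counting is not given in the sources used here. The gene map2, which encodes P-factor, was at 57.9 and 105 CPM against 501 and 333 CPM (2.33 ± 0.28, adjusted p = 7.36e-06). With only the 4 libraries compared in the fit, map2 was not called (2.31, adjusted p = 0.26). The P-type adhesin gene map4 was at 42.3 and 47.9 CPM against 152 and 141 CPM (1.69 ± 0.37, adjusted p = 0.0251), a call lost when any of the 4 libraries was left out (adjusted p 0.13 to 0.207).

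The other 3 P-cell genes were not called. The gene sxa1, for a protease that acts on M-factor, was at 400 and 408 CPM in wt and at 430 and 387 CPM in the clr4D-labelled libraries (log2 difference 0.01 ± 0.17, adjusted p = 1). The gene map1, for the transcription factor of P-specific genes, was at 17.96 and 32.07 CPM against 30.4 and 41.4 CPM (0.51 ± 0.28, adjusted p = 0.74). The libraries overlapped for both. The gene krp1, for the protease that processes the P-factor precursor, differed by -0.14 ± 0.14 (adjusted p = 0.945). Summed over the 5 P-cell markers, wt libraries held 617 and 692 CPM and clr4D-labelled ones 1898 and 1422 CPM. Markers of both types were thus present in every library at 2 h. In sum, M-cell markers stood above P-cell markers in both clr4D-labelled libraries and below them in both wt libraries. The wt P-cell sums rest mostly on sxa1 (400 and 408 CPM), which did not differ between the strains, so the order of the sums in wt depends on that gene. Bulk RNA cannot tell more cells with these RNAs from more RNA in each cell.

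**Figure D2:**
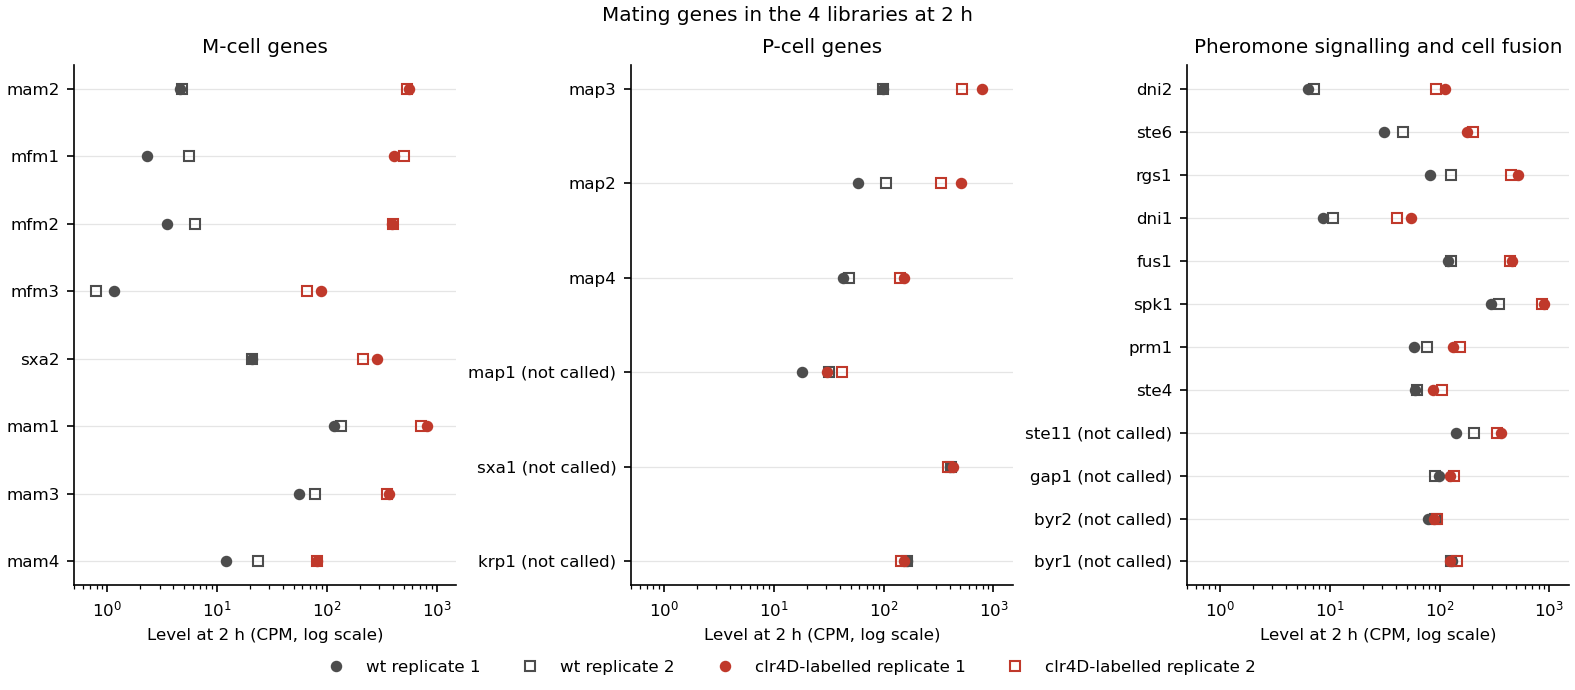
Level at 2 h (horizontal axis, CPM, log scale) of M-cell genes, P-cell genes and genes of pheromone signalling and cell fusion in each of the 4 libraries. Grey symbols are wt, red symbols clr4D-labelled cells, circles replicate 1 and squares replicate 2; the groups are far apart for mam2 and the mfm genes and overlap for sxa1 and map1.

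Genes of pheromone signalling and cell fusion rose together in part. Of 23 tested, 8 were called higher, 12 had an unadjusted p under 0.05, and 21 had a log2 difference above 0, with a median of 0.45. Called signalling genes included both activating and damping factors. The gene ste6, for the exchange factor that activates Ras1, was at 31.3 and 46.3 CPM in wt and at 177 and 201 CPM in the clr4D-labelled libraries, a log2 difference of 2.26 ± 0.18 (adjusted p = 4.64e-09). The gene rgs1, for a protein that damps the G protein signal, was at 81.7 and 127 CPM against 517 and 451 CPM (2.20 ± 0.19, adjusted p = 1.46e-08). The gene spk1, for the MAP kinase at the end of the chain, was at 291 and 344 CPM against 901 and 848 CPM (1.46 ± 0.15, adjusted p = 1.77e-07). Its kinases upstream were not called: byr2 differed by 0.12 ± 0.18 (adjusted p = 0.984) and byr1 by 0.07 ± 0.16 (adjusted p = 0.989). The G protein gene gpa1 differed by 0.25 ± 0.13 (adjusted p = 0.727) and ras1 by 0.13 ± 0.19 (adjusted p = 0.989).

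Of the remaining 5 called genes of the list, 4 act in cell fusion and ste4 in signalling. The gene dni2, for a claudin-like membrane protein of cell fusion, was at 6.37 and 7.13 CPM in wt and at 113 and 91.8 CPM in the clr4D-labelled libraries, a log2 difference of 3.88 ± 0.22 (adjusted p = 6.24e-12). Its relative dni1 was at 8.69 and 10.7 CPM against 55.3 and 40.7 CPM (2.25 ± 0.22, adjusted p = 1.55e-07). The formin gene fus1, whose product builds the actin structure at the fusion site, was at 118 and 127 CPM against 457 and 435 CPM (1.86 ± 0.17, adjusted p = 5.38e-08). No library of either strain crossed into the range of the other for these 3 genes. The membrane fusion gene prm1 (1.08 ± 0.25, adjusted p = 0.0349) and the MAP kinase adaptor gene ste4 (0.67 ± 0.17, adjusted p = 0.0379) were close to the threshold. The prm1 call was lost without any of the 4 libraries (adjusted p 0.0864 to 0.372), and the ste4 call without wt replicate 1, wt replicate 2 or clr4D-labelled replicate 2 (0.273, 0.244 and 0.68).

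Further genes of the list lay above 0 without passing the test. The gene gap1, for the protein that turns Ras1 off, was at 99.1 and 91.5 CPM in wt and at 125 and 134 CPM in the clr4D-labelled libraries (0.45 ± 0.14, adjusted p = 0.14). The gene ste7, needed early in mating, was at 92.1 and 149 CPM against 189 and 197 CPM (0.66 ± 0.41, adjusted p = 0.841). The myosin gene myo51 (0.42 ± 0.18, adjusted p = 0.478) and the MAP kinase phosphatase gene pmp1 (0.41 ± 0.20, adjusted p = 0.626) did not overlap between the strains either. Below 0 lay cfr1, a gene for cell fusion (-0.12 ± 0.12, adjusted p = 0.945), and gnr1, for a G protein beta subunit (-0.06 ± 0.46, adjusted p = 1).

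The transcription factor gene ste11 was not called. It was at 140 and 206 CPM in wt and at 359 and 331 CPM in the clr4D-labelled libraries, a log2 difference of 0.99 ± 0.34 (adjusted p = 0.313). The groups did not overlap, and with only the 4 libraries compared in the fit ste11 was called (adjusted p = 0.0198). The PAK-like kinase gene shk2, which is in none of the lists, stood apart more than most pathway genes, at 29.5 and 33.3 CPM against 402 and 376 CPM (3.62 ± 0.21, adjusted p = 6.89e-12). The calcium channel gene yam8 lies next to it in the annotation and was higher too (0.75 ± 0.13, adjusted p = 0.00121). The uncharacterized gene SPAC1565.03 lies next to ste4, overlaps it on the opposite strand and rose by 1.74 ± 0.26 (adjusted p = 7.69e-05).

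Of the genes for entry into meiosis, few passed the test at 2 h. Of 17 switch genes 2 were called higher, rep1 and omt3, with a median log2 difference of 0.33. The median was 0.80 without wt replicate 1, where 1 was called, and 0.05 without wt replicate 2. The gene rep1, for an activator of MBF transcription that meiosis needs, was at 26.65 and 20.98 CPM in wt and at 64.0 and 64.9 CPM in the clr4D-labelled libraries, a log2 difference of 1.46 ± 0.20 (adjusted p = 3.9e-05). The lncRNA gene omt3 was at 56.8 and 93.4 CPM against 325 and 268 CPM (1.96 ± 0.33, adjusted p = 0.00222), a call lost without wt replicate 1 (1.66, adjusted p = 0.0532). Its neighbour omt2 rose by 1.82 ± 0.28 (adjusted p = 9.33e-04). The RNA-binding protein gene mei2, which triggers meiosis, was at 320 and 500 CPM against 932 and 806 CPM (1.08 ± 0.32, adjusted p = 0.133). It was called by DESeq2 (adjusted p = 0.038). The lncRNA sme2, which works with Mei2, was at 11.6 and 11.5 CPM against 27.1 and 25.5 CPM (1.18 ± 0.47, adjusted p = 0.463), and was called with only the 4 libraries in the fit (adjusted p = 0.0342). The gene nrg1 lay lower, at 906 and 975 CPM in wt and 582 and 618 CPM in the clr4D-labelled libraries (-0.65 ± 0.17, adjusted p = 0.0523), and was called lower in 7 of the 10 other settings, DESeq2 and limma-voom among them (adjusted p 2.49e-04 to 0.0391). The lowest value of the list was that of mmi1, for a protein that removes meiotic RNAs (-1.07 ± 0.60, adjusted p = 0.778). The genes mei4 (0.33 ± 0.27, adjusted p = 0.927) and mei3 (3 reads in wt and 2 in the clr4D-labelled libraries) were not called.

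Few genes of meiotic chromosomes passed the test, although most lay above 0. Of 26 tested genes for meiotic cohesin and recombination 2 were called higher, both for nuclear movement by dynein. The dynein heavy chain gene dhc1 was at 159 and 147 CPM in wt and at 348 and 304 CPM in the clr4D-labelled libraries, a log2 difference of 1.09 ± 0.20 (adjusted p = 0.00214), lost without wt replicate 2 (1.03, adjusted p = 0.0829). The dynein anchor gene num1 was at 43.5 and 42.4 CPM against 95.4 and 64.9 CPM (0.87 ± 0.18, adjusted p = 0.00711). Its call was lost without wt replicate 1, wt replicate 2 or clr4D-labelled replicate 1 (adjusted p 0.0514, 0.121 and 0.265), and its value fell to 0.60 without the last. Of the 26 genes 24 had a log2 difference above 0, with a median of 0.46, and 7 had an unadjusted p under 0.05. The cohesin gene rec8 was at 22.6 and 21.8 CPM against 24.9 and 26.9 CPM (0.24 ± 0.25, adjusted p = 0.945), and the recombinase gene dmc1 had 2 reads in wt and 3 in the clr4D-labelled libraries. Of 25 spore wall and membrane genes edgeR, DESeq2 and limma-voom each called 0, with 1 at an unadjusted p under 0.05 in edgeR and a median of 0.06.

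**Figure D3:**
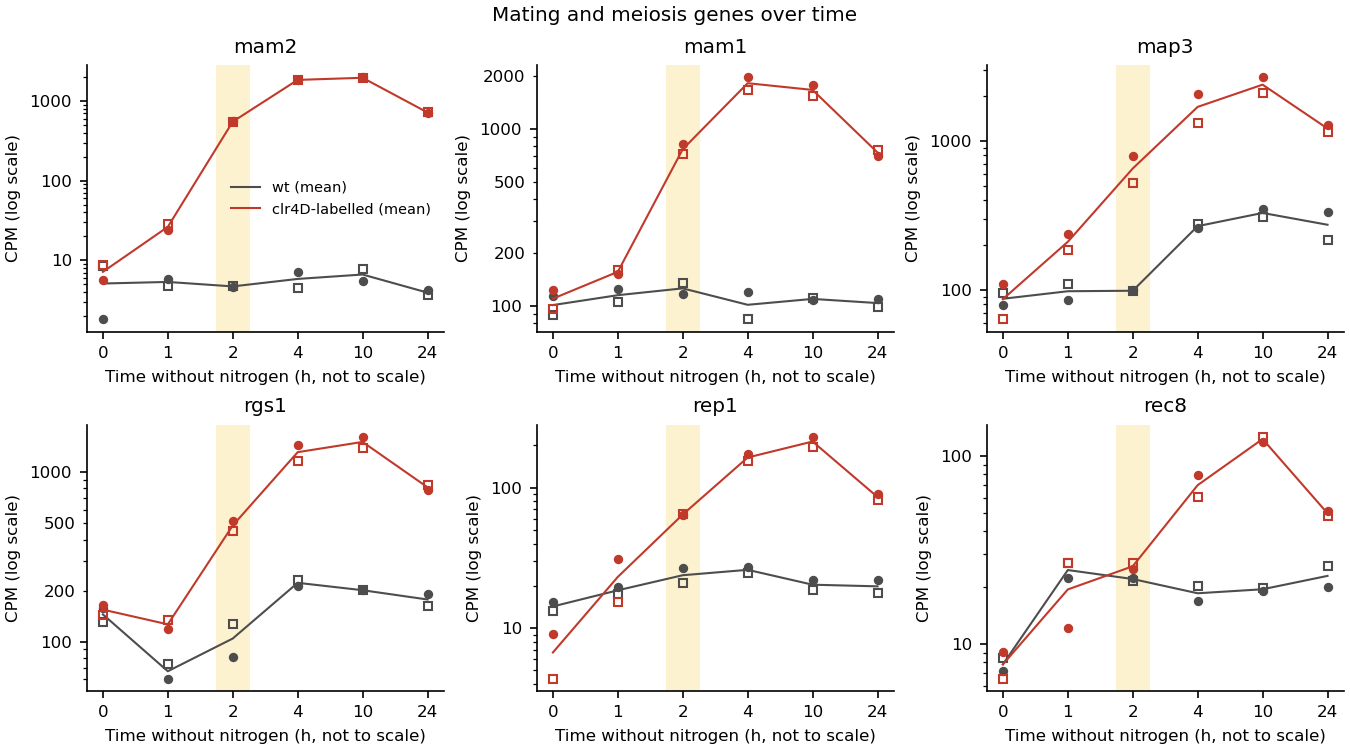
Level over time without nitrogen (horizontal axis, 0 to 24 h, not to scale) of mam2, mam1, map3, rgs1, rep1 and rec8 (vertical axis, CPM, log scale). Lines join the means of 2 libraries, circles are replicate 1 and squares replicate 2, and the shaded band marks 2 h; mam1 lies close in the strains at 1 h and apart at 2 h, mam2 is apart at 1 h and farther at 2 h, and rec8 lies close at 2 h and apart at 4 h.

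The strain difference of many mating genes was larger at 2 h than in growing cells. The strain difference at 2 h differed from that at 0 h for 17 genes (0.3% of those tested), 15 upward and 2 downward, with 236 (4.17%) at an unadjusted p under 0.05. In clr4D-labelled cells mam2 was at 5.57 and 8.72 CPM at 0 h, 24.2 and 28.2 CPM at 1 h, and 1821 and 1844 CPM at 4 h, beside the 561 and 536 CPM at 2 h. In wt it stayed between 1.805 and 8.401 CPM at all 6 times. Its strain difference was 6.39 ± 0.70 larger at 2 h than at 0 h (log2, edgeR interaction test, adjusted p = 5.91e-06), a call that did not hold when wt 0 h replicate 2 was left out (5.06, adjusted p = 0.424). The same test called sxa2, mam1, mam4, map3, ste6, rgs1 and spk1 under every omission of 1 library, with differences of 1.52 (spk1) to 3.95 (sxa2). The value of sxa2 was 5.18 without clr4D-labelled 0 h replicate 1 and 3.18 without wt 0 h replicate 1, and that of mam4 (2.50) was 3.12 without wt 2 h replicate 2.

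For a few genes the strain difference grew between 1 and 2 h. The strain difference at 2 h exceeded that at 1 h for 8 genes and fell short of it for 0 in edgeR (0.141% called), and 222 genes (3.92%) had an unadjusted p under 0.05. The counts were 13 upward and 1 downward in DESeq2, and 10 upward and 1 downward in limma-voom. The gene mam1 was at 152 and 159 CPM at 1 h in clr4D-labelled cells, beside the 124 and 105 CPM of wt, and at 820 and 719 CPM at 2 h. For mam1, sxa2 and shk2 the difference from 1 h to 2 h was called under every omission of 1 library (2.19, 3.76 and 2.94 on the log2 scale). The pheromone gene mfm2 already stood apart in growing cells, at 15.32 and 15.27 CPM in clr4D-labelled cells against 1.805 and 3.60 CPM in wt at 0 h. At 1 h it was at 76.7 and 80.9 CPM against 3.54 and 1.60 CPM. The genes mfm1, mfm2 and mfm3 were not among those whose strain difference was called as changed between 0 h and 2 h. At 0 h mfm3 was at 0.696 and 0 CPM in clr4D-labelled cells against 0.902 and 1.2 CPM in wt. The gene mfm1 was at 5.57 and 10.9 CPM against 1.805 and 2.4 CPM. Such levels rest on few reads, which limits this test: 3 reads over the clr4D-labelled 0 h group are 1.58 CPM. Between 1 h and 2 h mfm1 was called (4.58, or 4.00 to 5.72 without 1 library).

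Of the 75 genes higher at 2 h, 9 were also called higher at 0 h (12% of the 75 and 81.8% of the 11 called higher at 0 h, which are 0.194% of genes tested). The difference had the same sign in 50 of the 75 at 0 h, 66 at 1 h and 74 at 4 h. Depth limits calls at 0 h, where clr4D-labelled replicate 2 scaled to 458446 reads, so a gene not called there may still have differed. The wt replicates at 0 h also lay apart for some of these genes. SPNCRNA.232 and tlh2 were at 33.6 CPM, SPNCRNA.231 at 27.6 and mam2 at 8.40 CPM in replicate 2, against 1.805 CPM each in replicate 1. SPNCRNA.364 and SPAC186.04c were at 0 in both. The wt values at 0 h enter all comparisons with 0 h, and the reason for the spread was not tested. At 1 h 22 were called higher (29.3%, and 84.6% of the 26 called there, 0.459% of genes tested). At 4 h 67 were called higher (89.3%, and 22.8% of the 294 called there, 5.19% of genes tested). Of the 13 genes lower at 2 h, 6 were also lower at 1 h (46.2%, and 50% of the 12 called there, 0.212% of genes tested) and 10 at 4 h (76.9%, and 1.8% of the 556 called there, 9.82% of genes tested). From 2 h to 4 h the strain difference grew further for 22 genes (0.388%) and fell for 0 in edgeR, and 812 genes (14.3%) had an unadjusted p under 0.05. Among these were rec8 (1.76 ± 0.33, adjusted p = 0.0123) and rec11 (2.44 ± 0.34, adjusted p = 5.6e-04), which encode subunits of meiotic cohesin, and the gene for the Cdc2-inhibiting kinase mik1 (2.51 ± 0.38, adjusted p = 0.00122). With only the libraries compared in the fit edgeR called 0 of them, with 496 genes at an unadjusted p under 0.05, while over all libraries DESeq2 called 13 upward and 167 downward and limma-voom 22 upward and 6 downward. The replicates of wt at 4 h had the lowest Pearson r of the 12 groups (0.9595), and leaving out its replicate 1 gave 775 calls, 196 upward and 579 downward, with rec11 at 4.47. Leaving out clr4D-labelled 4 h replicate 1 or 2 h replicate 2 gave 7 calls, and clr4D-labelled 4 h replicate 2 gave 49. The rec8 call was lost without wt 2 h replicate 1 or 2, clr4D-labelled 2 h replicate 2 or 4 h replicate 1.

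Transcripts of regions that Clr4 is known to silence were present at 2 h in the clr4D-labelled libraries and nearly absent in wt. The annotation names 20 centromeric lncRNAs, of which 8 passed the filter on low counts and 6 were called higher. Of the 12 left out, 10 had 0 reads at 2 h. SPNCRNA.232 was at 0 and 0.792 CPM in wt (2 reads in all) and at 257 and 277 CPM in the clr4D-labelled libraries (638 reads), a ratio of 572 with a 95% counting interval of 158 to 4730 (adjusted p = 1.15e-06). Without wt replicate 1 the ratio was 340, and without wt replicate 2, which held both wt reads, SPNCRNA.232 was at least 155-fold higher than 3 reads in the lone wt library. In growing cells (0 h) SPNCRNA.232 was already at 187 and 107 CPM in the clr4D-labelled libraries, against 1.805 and 33.6 CPM in wt. Its neighbour SPNCRNA.231 was at 1.16 and 0 CPM against 194 and 158 CPM, a ratio of 366 (101 to 3030, adjusted p = 7.9e-06), or 149 without wt replicate 2 and at least 145-fold without wt replicate 1. The neighbours SPNCRNA.365 and SPNCRNA.364 had 0 reads in both wt libraries. They stood at 49.9 and 37.3 CPM and at 16.3 and 34.5 CPM in the clr4D-labelled libraries, at least 59.8-fold and 38.9-fold higher than the 3 reads that 0 allows over the wt group (adjusted p = 3.37e-05 and 9.26e-06). At 0 h SPNCRNA.365 was at 2.09 and 2.18 CPM in the clr4D-labelled libraries and at 0 and 4.8 CPM in wt. SPNCRNA.359 was at 1.16 and 1.19 CPM against 20.6 and 31.7 CPM (log2 difference 4.43 ± 0.45, adjusted p = 2.1e-07). SPNCRNA.234 had 2 reads in wt and 28 in the clr4D-labelled libraries, a ratio of 25.1 (6.33 to 218, adjusted p = 0.00265), or 10.2 without wt replicate 2 and at least 9.94-fold without wt replicate 1, a call lost without wt replicate 2 (adjusted p = 0.151) or clr4D-labelled replicate 2 (0.149).

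Genes on subtelomeric clones moved in both directions. The list held 102 matched genes, of which 51 were tested and 51 left out for low counts, 30 of them with 0 reads at 2 h. Of the 51 tested, 7 were called higher and 5 lower, with a median log2 difference of -0.05. The telomere-linked helicase gene tlh2 was at 2.32 and 0.792 CPM in wt and at 191 and 132 CPM in the clr4D-labelled libraries, a log2 difference of 6.73 ± 0.57 (adjusted p = 1.64e-06). Its value was 7.51 without wt replicate 1 and 6.05 without wt replicate 2. At 0 h tlh2 was already at 102 and 105 CPM in the clr4D-labelled libraries, against 1.805 and 33.6 CPM in wt. A near-identical copy, tlh1, had 0 reads in wt and 7 in the clr4D-labelled libraries (adjusted p = 0.203). Reads shared by the copies were not counted, so the split between them is uncertain. The helicase-like gene SPAC212.06c was at 0.579 and 2.37 CPM against 33.6 and 20.7 CPM (3.94 ± 0.48, adjusted p = 4.5e-06), or 5.32 without wt replicate 2.

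Neighbouring genes on clone SPAC186 were called higher from 1 or 0 reads in wt. The gene gdt1 had 1 read in wt and 165 in the clr4D-labelled libraries, where it was at 67.2 and 71.1 CPM, a ratio of 296 (52.4 to 11800, adjusted p = 1.75e-11). Without wt replicate 1 the ratio of gdt1 was 176, and without wt replicate 2 it was at least 40-fold higher. SPAC186.06, annotated as an isomerase, had 0 reads in wt and stood at 48.8 and 44.9 CPM, at least 65.8-fold higher (adjusted p = 2.71e-08). At 0 h it was at 2.79 and 2.18 CPM in the clr4D-labelled libraries and at 0 and 1.2 CPM in wt. SPAC186.04c had 0 reads in wt and stood at 15.2 and 20.7 CPM, at least 26.3-fold higher (adjusted p = 1e-04). The aldo/keto reductase gene SPAC750.01 had 0 reads in wt and stood at 13.02 and 4.83 CPM, at least 11.4-fold higher (adjusted p = 0.00461), a call lost without wt replicate 2 (adjusted p = 0.107) or clr4D-labelled replicate 1 (0.0735). SPAC212.08c, for a cell surface protein, was at 1.16 and 0.792 CPM against 8.68 and 7.59 CPM (2.99 ± 0.66, adjusted p = 0.0135), a call lost without any of the 4 libraries (0.0737 to 0.298).

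Between mat1 and mat3, a stretch looked at after its values were seen, 4 of 9 tested features were called higher. SPBC23G7.10c, annotated as a flavin oxidoreductase, had 1 read in wt and 189 in the clr4D-labelled libraries, where it was at 89.0 and 73.9 CPM, a ratio of 339 (60.1 to 13500, adjusted p = 1.47e-10). Without wt replicate 1 the ratio was 201, and without wt replicate 2 SPBC23G7.10c was at least 45.9-fold higher. The DNA glycosylase gene mag2 was at 2.32 and 2.77 CPM against 51.0 and 56.6 CPM (4.35 ± 0.45, adjusted p = 4.51e-07). The lncRNAs SPNCRNA.388 and SPNCRNA.1488 rose too (adjusted p = 0.00525 and 0.0124), from few reads. SPNCRNA.388 had 0 and 1 reads in wt against 8 and 13, and SPNCRNA.1488 had 3 and 2 against 10 and 13. SPNCRNA.1488 overlaps SPBC23G7.13c on the opposite strand, and the strand setting of the counting is not given in the sources used here. In the same stretch rpt6, for a proteasome subunit, differed by 0.32 (adjusted p = 0.335) and rpp202, for a ribosomal protein, by 0.42 (adjusted p = 0.574). SPBC23G7.13c lay lower, at 44.0 and 86.7 CPM in wt against 28.2 and 31.8 CPM (-1.15 ± 0.42, adjusted p = 0.382), and was not called. Features on either side of the stretch were not called, the lowest adjusted p being 0.333 (srp40).

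**Figure D4:**
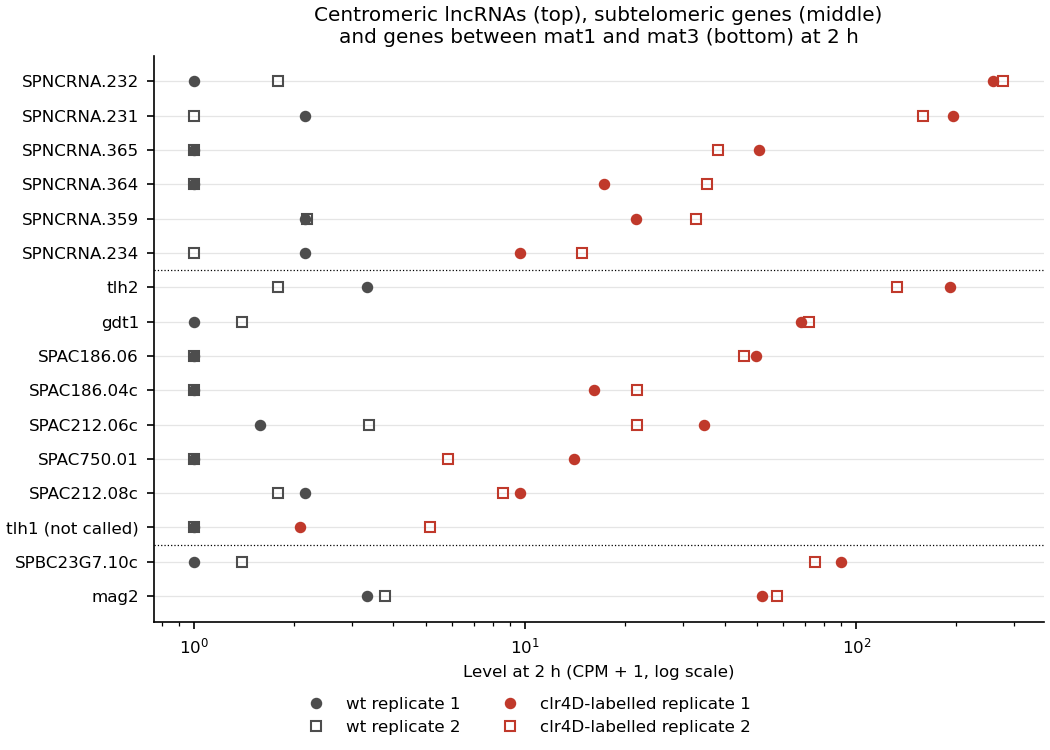
Level at 2 h (horizontal axis, CPM + 1, log scale) of 6 centromeric lncRNAs, 8 subtelomeric genes and 2 genes between mat1 and mat3 in each of the 4 libraries. Grey symbols are wt and red symbols clr4D-labelled cells; in wt every value lies below 3 CPM, and SPNCRNA.232 is highest in the clr4D-labelled cells.

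Genes for heterochromatin and RNAi proteins were not called. Of 28 tested, edgeR, DESeq2 and limma-voom each called 0, with 1 at an unadjusted p under 0.05 in edgeR and a median log2 difference of 0.08. The gene swi6, for the protein that binds methylated histone H3, was at 83.4 and 101 CPM in wt and at 90.0 and 72.5 CPM in the clr4D-labelled libraries (-0.21 ± 0.16, adjusted p = 0.909), with overlapping libraries. Of the list, clr1 and dcr1, for a silencing factor and for Dicer, had the highest levels and differed by 0.02 ± 0.14 and 0.13 ± 0.13 (adjusted p = 1 and 0.945). Of 13 Tf2 retrotransposon copies 2 were tested, and edgeR, DESeq2 and limma-voom called 0 of them, with 0 at an unadjusted p under 0.05 in edgeR. The filter left out 11 copies, 9 of them with 0 reads at 2 h, and reads aligned to several places were not counted. The Tf2 copies were thus largely unmeasured.

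The largest falls were in a cluster of genes on clone SPAC869 whose annotated products act on amides and urea. The amidase gene SPAC869.01 was at 92.7 and 119 CPM in wt and at 5.42 and 8.97 CPM in the clr4D-labelled libraries, a log2 difference of -3.80 ± 0.36 (adjusted p = 3.36e-07). The urea transporter gene SPAC869.03c was at 1081 and 1393 CPM against 263 and 264 CPM (-2.23 ± 0.22, adjusted p = 1.77e-07). The formamidase-like gene SPAC869.04 was at 1202 and 1488 CPM against 266 and 311 CPM (-2.22 ± 0.25, adjusted p = 1.64e-06). The adjacent nitric oxide dioxygenase gene yhb1 was at 116 and 143 CPM against 57.5 and 42.8 CPM (-1.41 ± 0.18, adjusted p = 7.17e-06). No library of the strains overlapped for any of the 4, and each call held without any of the 4 libraries. The first of them had 0 reads at 0 h in both strains, then 80.1 and 117 CPM in wt and 9.42 and 23.1 CPM in clr4D-labelled cells at 1 h, so SPAC869.01 appeared after the loss of nitrogen in both strains.

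**Figure D5:**
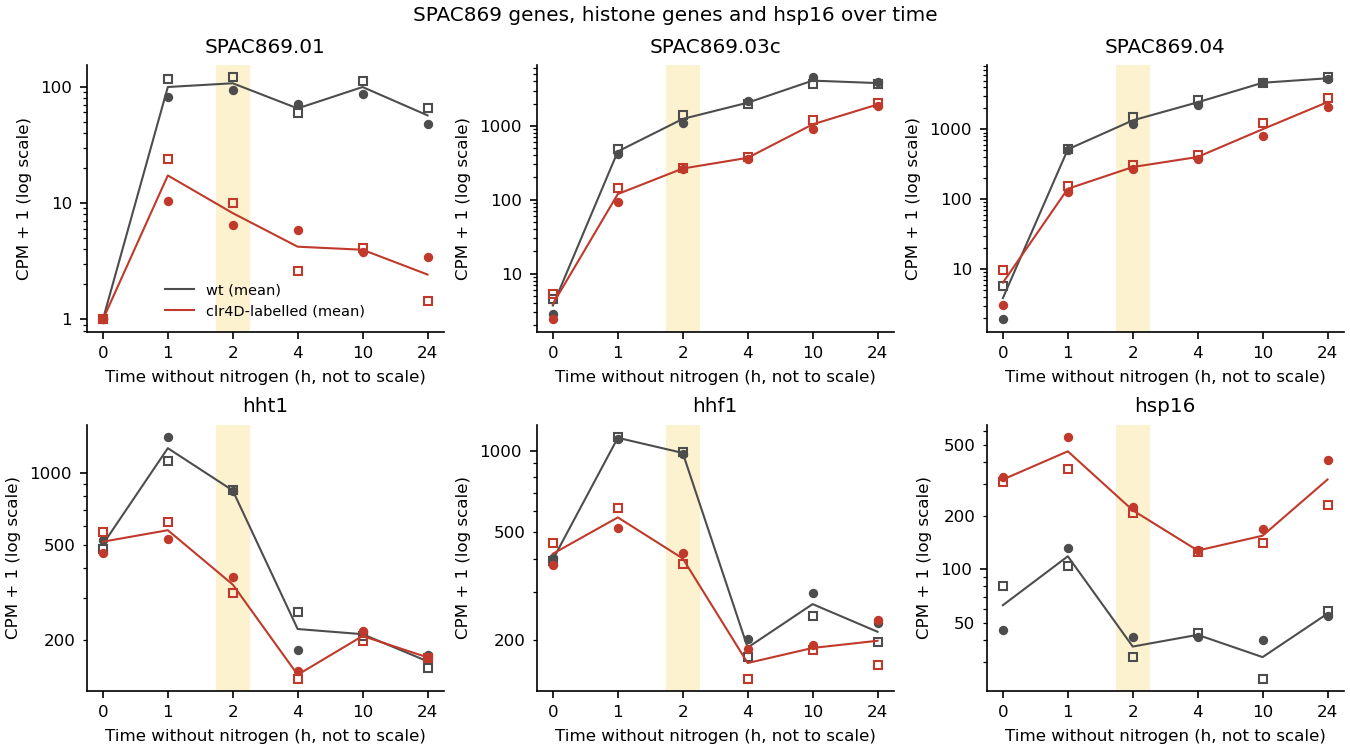
Level over time without nitrogen (horizontal axis, 0 to 24 h, not to scale) of 3 genes of clone SPAC869, the histone genes hht1 and hhf1, and hsp16 (vertical axis, CPM + 1, log scale). Lines join means of 2 libraries, circles are replicate 1 and squares replicate 2; the SPAC869 genes rise in both strains and lie lower in clr4D-labelled cells from 1 h on, and both histone genes are highest in wt at 1 h (1104 to 1422 CPM).

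Most other genes for nitrogen scavenging were not called. Of 27 tested in that list, which holds the 4 genes above, these 4 were lower and 1 was higher, with a median log2 difference of -0.12. The higher gene inv1, annotated as an external invertase, and yhb1 count here as list members, not by an annotated scavenging product. The protease gene isp6, among the most abundant RNAs of starved cells, was at 16240 and 14380 CPM in wt and at 16940 and 17340 CPM in the clr4D-labelled libraries (0.16 ± 0.26, adjusted p = 0.989). The gene called higher was inv1, for a secreted invertase, at 16.8 and 17.02 CPM against 35.8 and 69.7 CPM (1.69 ± 0.26, adjusted p = 1.42e-04), a call lost without clr4D-labelled replicate 2 (1.08, adjusted p = 0.155). The asparaginase gene SPBPB21E7.09 completes the 5 lower genes of the subtelomeric list, beside the 4 of clone SPAC869. It was at 222 and 253 CPM against 163 and 148 CPM (-0.62 ± 0.14, adjusted p = 0.0121), a call lost without wt replicate 2 (0.282) or clr4D-labelled replicate 2 (0.293). Of 27 autophagy genes edgeR, DESeq2 and limma-voom each called 0, with 0 at an unadjusted p under 0.05 in edgeR, and atg8, for the protein that coats the autophagosome, was at 243 and 228 CPM against 246 and 238 CPM.

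Some histone genes were lower. Of 11 tested genes 3 were called lower, 6 had an unadjusted p under 0.05 and 0 had a log2 difference above 0, with a median of -0.59. The count called was 4 by DESeq2, 6 without the wt 4 h group and with only the compared libraries in the fit, where hhf3, hta1 and htb1 were added, and 2 when any 1 of the 4 libraries was left out and by limma-voom. The histone H3 gene hht1 was at 838 and 852 CPM in wt and at 367 and 314 CPM in the clr4D-labelled libraries, a log2 difference of -1.32 ± 0.17 (adjusted p = 1.16e-05). The histone H4 gene hhf1, its neighbour, was at 971 and 990 CPM against 419 and 380 CPM (-1.30 ± 0.17, adjusted p = 2.18e-05). The H2A gene hta2 was at 965 and 935 CPM against 610 and 571 CPM (-0.69 ± 0.18, adjusted p = 0.0468), a call lost without any of the 4 libraries (adjusted p 0.189 to 0.401) and by limma-voom (0.0501). Another pair of H3 and H4 genes was not called, hht2 at -0.12 ± 0.26 and hhf2 at -0.22 ± 0.18 (adjusted p = 0.989 and 0.925). The coding sequences of the copies are much alike, and reads that fit several of them were not counted. The strain differences of hht1 and hhf1 were lower at 2 h than at 0 h by interaction (-1.34 ± 0.24 and -1.36 ± 0.25, adjusted p = 0.00544 and 0.0069). In wt hht1 was at 526 and 479 CPM at 0 h and at 1422 and 1121 CPM at 1 h, and in clr4D-labelled cells it was at 463 and 567 CPM and then at 529 and 622 CPM. Both interaction calls were lost without wt 0 h replicate 2 (adjusted p 0.0589 for each), clr4D-labelled 0 h replicate 2 (0.0509 and 0.0605) or clr4D-labelled 2 h replicate 2 (0.0726 for each).

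Cell cycle lists gave no calls. Of 20 MBF targets, genes that peak in G1 and S phase, edgeR, DESeq2 and limma-voom called 0, with 3 at an unadjusted p under 0.05 in edgeR and a median of 0.02. The gene cdc22, for the large subunit of ribonucleotide reductase, was at 754 and 705 CPM in wt and at 923 and 701 CPM in the clr4D-labelled libraries (0.15 ± 0.18, adjusted p = 0.955). Of 16 septation and cell separation genes the same 3 tools called 0, with 2 at an unadjusted p under 0.05 in edgeR, and 1 had a log2 difference above 0, with a median of -0.37. In this list the clr4D-labelled libraries lay apart: adg3, for a cell separation protein, was at 863 CPM in replicate 1 and 452 CPM in replicate 2, beside 837 and 838 CPM in wt. Without clr4D-labelled replicate 1 the median was -0.86 with 6 genes called lower, and without replicate 2 it was -0.01 with 0 called.

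The heat shock gene hsp16, for a small chaperone, was the only called gene of 21 chaperone genes. It was at 40.6 and 30.9 CPM in wt and at 221 and 205 CPM in the clr4D-labelled libraries, a log2 difference of 2.59 ± 0.31 (adjusted p = 4.13e-05), and the median of the list was 0.09. At 0 h the same gene was at 44.2 and 79.2 CPM in wt and at 328 and 308 CPM in the clr4D-labelled cells, so both clr4D-labelled libraries lay above both wt ones in growing cells as well. The siderophore transporter gene str1 (1.44 ± 0.35, adjusted p = 0.0486) was the only called gene of 14 iron uptake genes and was lost without any of the 4 libraries (adjusted p 0.21 to 0.405). The sulfur list had 2 of 14 genes called, but this counts str1 again, whose annotated product is a siderophore transporter. The other was the sulfate transporter gene sul1 (0.76 ± 0.16, adjusted p = 0.00957). It was lost without clr4D-labelled replicate 1 (0.0631), wt replicate 2 (0.371) or clr4D-labelled replicate 2 (0.111).

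Lists of housekeeping and stress genes gave no calls in the main fit. Of 141 genes for cytosolic ribosomal proteins edgeR, DESeq2 and limma-voom called 0, with 2 at an unadjusted p under 0.05 in edgeR, and 115 had a log2 difference above 0 with a median of 0.12. Of 18 glycolysis and gluconeogenesis genes the 3 tools called 0, with 0 at an unadjusted p under 0.05 in edgeR and a median of -0.09. The abundant fba1, for aldolase, was at 11380 and 12010 CPM in wt and at 8841 and 9742 CPM in the clr4D-labelled libraries (-0.33 ± 0.36, adjusted p = 0.946). Of 22 core stress genes the 3 tools called 0, with 1 at an unadjusted p under 0.05 in edgeR, 17 above 0 and a median of 0.13. In edgeR 1 of them was called higher with a replicate block, and 1 with only the compared libraries in the fit. Of 20 wtf genes, which act as spore killers, the 3 tools likewise called 0, with 1 at an unadjusted p under 0.05 in edgeR.

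Some called genes belong to no list. Among the 20 largest rises, SPAPB24D3.07c, which is uncharacterized, was at 0.579 and 1.58 CPM in wt and at 18.4 and 12.4 CPM in the clr4D-labelled libraries (3.59 ± 0.55, adjusted p = 1.45e-04), or 4.51 without wt replicate 2. Among the 10 largest falls were 3 genes of other kinds. SPAC922.06, annotated as a reductase of fatty acid synthesis, fell by 0.82 ± 0.18 on the log2 scale (adjusted p = 0.0119), lost without wt replicate 1 (0.0695), wt replicate 2 (0.107) or clr4D-labelled replicate 2 (0.357). The phosphatase gene SPCC1840.07c (-0.72 ± 0.18, adjusted p = 0.0353) was lost without any of the 4 libraries (0.175 to 0.27). The uncharacterized SPBC1604.03c (-0.70 ± 0.13, adjusted p = 0.00193) was lost without wt replicate 2 (0.082) or clr4D-labelled replicate 2 (0.111).

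In the reference annotation 24 of the 75 higher genes (32%) and 7 of the 13 lower genes (53.8%) were next to another called gene among the counted features, beside 130 of the 5636 tested and matched genes (2.31%). Next to mam2 lay SPAC11H11.03c, which rose by 1.24 ± 0.21 (adjusted p = 7.82e-04), next to dni2 the lncRNA SPNCRNA.569 (3.20 ± 0.57, adjusted p = 0.00108), and next to rep1 the lncRNA SPNCRNA.573 (3.14 ± 0.47, adjusted p = 1.18e-04). SPAC513.04, next to mfm2, had 0 reads in wt and stood at 4.34 and 4.14 CPM in the clr4D-labelled libraries (adjusted p = 0.0212). A feature on the opposite strand overlaps 54.7% of the higher genes and 15.4% of the lower ones, beside 56.7% of those 5636 genes. Whether reads of such partners were kept apart depends on the strand setting of the counting, which is not given in the sources used here.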

How the data were processed

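Total RNA depleted of ribosomal RNA was sequenced as directional libraries, per the labels' protocols. The deposited values are raw counts of reads per annotated feature, which the authors made with TopHat2 2.0.8, HTSeq 0.6.1 and the ASM294v2 genome, per the submitters' processing notes. Neither the strand setting nor the release of the annotation is given in the sources used here. Summing transcripts per gene turned 6878 features into 6877 genes. A RefSeq annotation of another build (ASM294v3) supplied names, gene class and neighbours only, and its systematic names covered 6713 genes and missed 164. HTSeq totals for reads without a gene stayed out of all tests: reads outside features made up 2.09% to 5.14% of each library, ambiguous reads 0.945% to 1.41% and reads aligned to several places 5.42% to 12.4%. Gene reads ran from 637723 to 4427020 per library. Reads carry no molecular identifiers, so intervals and limits cover counting error only.

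With edgeR 4.0.16 under R 4.3.3, a robust quasi-likelihood model took 12 group means over all 24 libraries, after the default low-count filter (5664 genes tested, 1213 left out) and scaling by the trimmed mean of M values. Its common dispersion corresponds to a biological coefficient of variation of 0.122, and it had 12 residual and, at the median, 11.4 prior degrees of freedom. All F tests are two-sided, with Benjamini-Hochberg adjustment over all tested genes, and a gene is called at an adjusted p under 0.05. Standard errors were obtained as the absolute log2 difference over the root of the F statistic. Tests of the strain difference at 2 h against that at 0, 1 and 4 h are interaction contrasts of the same fit. Alternatives were other scalings, other filters, DESeq2 1.42.0, limma-voom (limma 3.58.1), a replicate block, fits to the compared libraries alone, a fit without the wt 4 h group, and each library left out. Counts were simulated for the 2 h comparison over 5628 genes. On the log2 scale, 84% of genes raised by 1 and 98% of those raised by 2 were called. Of those lowered by 1 and 2, 80% and 96% were called, and 5.8% of calls were false. The changed genes were drawn above a minimum level in wt at 2 h, and their spread was that of the fitted model. These rates do not cover features almost without reads in wt, or genes whose spread departs from that model.

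Named genes are clr4, the 20 largest rises and 10 largest falls among calls whose higher group averaged 10 CPM or more and whose libraries did not overlap, every called member of a list, all members of the M-cell, P-cell and pheromone lists, a set of landmark genes, and the 2 most abundant members of lists with no call. Other genes named beside them (yam8, SPAC1565.03, omt2, his6, the mat1 to mat3 features, hht2, hhf2 and the neighbours of called genes) were chosen after their values were seen. The members and the 21 lists were chosen with earlier results of these data known. The replicate numbers were not taken as pairs, and a replicate block was fitted as an alternative. Deviations of replicate 1 from the group mean correlated at 0.045 between wt and clr4D-labelled cells at 2 h, and at -0.077 to 0.333 over all 66 pairs of groups.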

Additional observations from a re-analysis of the deposited data

Results flagged for a closer look

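The strain difference (clr4D-labelled minus wt, log2) changed between times for the genes below, each by edgeR's interaction test with an adjusted p under 0.05. The comparisons share the 2 h libraries, so their calls are not independent.

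Between 0 h and 2 h the M-cell genes changed as follows: mam2 by 6.39, sxa2 by 3.95, mam4 by 2.50, mam1 by 2.46 and mam3 by 1.92. Of the pheromone and P-cell lists, ste6 changed by 2.85, map3 by 2.64, rgs1 by 2.09, fus1 by 1.90 and spk1 by 1.52. Outside these lists were shk2 at 3.16, rep1 at 2.32, eta2 at 2.22, SPNCRNA.857 at 1.99 and SPAC11H11.03c at 1.54. Without clr4D-labelled 0 h replicate 1, sxa2 was at 5.18, eta2 at 4.13, rep1 at 3.17 and fus1 at 2.58, and the calls of eta2 and rep1 were lost without 7 and 6 of the 8 libraries in turn. The histone genes hht1 and hhf1 changed by -1.34 and -1.36. Of the 17 calls, 7 held without any 1 library (sxa2, mam1, mam4, ste6, map3, rgs1 and spk1). Leaving out wt 0 h replicate 2 ended the mam2 call (5.06, adjusted p = 0.424), and leaving out wt 0 h replicate 1 that of fus1 (1.70, adjusted p = 0.0514).

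Between 1 h and 2 h the change was 4.84 for SPNCRNA.573, 4.64 for mam2, 4.58 for mfm1, 3.76 for sxa2, 2.94 for shk2, 2.25 for SPBC146.02, 2.19 for mam1 and 1.44 for fus1. Of these 8 calls, 3 held without any 1 library (sxa2, shk2 and mam1). SPNCRNA.573 ran from 3.85 (without clr4D-labelled 1 h replicate 2) to 9.03 (without clr4D-labelled 1 h replicate 1) and was lost without 6 of the 8 libraries in turn. The value of mfm1 reached 5.72 without wt 1 h replicate 1, where it was not called, and that of SPBC146.02 reached 2.92, a gene whose call was lost without 6 of the 8 libraries in turn. Leaving out wt 1 h replicate 1 ended the mam2 call (4.40, adjusted p = 0.275).

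Between 2 h and 4 h, genes of meiotic chromosomes changed by 2.44 (rec11), 2.44 (hop1), 1.76 (rec8), 1.32 (dhc1), 1.20 (psm3) and 1.15 (num1). Genes of the cell cycle and of centromeres changed by 2.51 (mik1), 2.49 (cnp1), 1.60 (cig2), 1.59 (scm3), 1.31 (cdt2) and 1.15 (cdc18). Mating genes changed by 2.19 (sxa2), 1.56 (dni1), 1.48 (mam1) and 1.46 (mam3), and others by 1.98 (mug4), 1.75 (mug14), 1.52 (mug8), 1.45 (pom34), 1.28 (yam8) and 0.84 (rax2). Without wt 4 h replicate 1, rec11 was at 4.47, cnp1 at 3.52, mug4 at 3.05, dni1 at 2.15 and hop1 at 1.47, the last no longer called (adjusted p = 0.219). Of these 22 calls, 7 held without any 1 library (sxa2, mam1, yam8, mug8, cig2, rec11 and mik1), and 0 with only the compared libraries in the fit.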

How the results depend on the processing

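The 88 calls at 2 h became 74 to 107 under the 10 other settings and 52 to 75 when 1 library was left out (75 higher: 46 to 57, 13 lower: 6 to 18). Lower genes numbered 20 with a replicate block, and 23 both without the wt 4 h group and with only the compared libraries. The 17 calls of 2 h against 0 h became 10 to 15 without 1 library. The 8 calls of 2 h against 1 h became 14 by DESeq2, 13 with only the compared libraries, and 4 to 9 without 1 library. The 22 calls of 4 h against 2 h became 39 with library totals alone, 180 by DESeq2 and 0 with only the compared libraries, and 7 to 775 without 1 library, the highest without wt 4 h replicate 1. The cause of these shifts was not tested. Where a library was left out, the lone sample of its group was assumed to vary like the other groups.

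In the main fit the replicate numbers were not taken as pairs. Deviations of replicate 1 from the group means correlated at -0.077 to 0.333 over 66 pairs of groups (median 0.078), above 0.1 in 23. Whether some groups share a replicate effect was not tested. The replicate block gave 107 calls at 2 h (87 higher, 20 lower), which include all 88 of the fit without it. The block also called mei2 (1.11, adjusted p = 0.0483) and sme2 (1.19, adjusted p = 0.0364).

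For named genes, 152 results gave 2269 values under the alternatives run for each, and 0 of them changed sign while called. The fit without the wt 4 h group was not run for 4 h against 2 h. At 2 h, 38 of 55 named calls held without any 1 library. The search for promoter motifs was not run. Genes near the low-count filter, and features with copies elsewhere in the genome, were limited by depth and by the loss of reads that align to several places.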
